A study of Mus musculus with 6 samples.

Results

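The 10 genes described here are known from hepatic stellate cells, the vitamin A-storing pericytes of the liver sinusoid. They are Reln, Des, Pdgfrb, Hgf, Ngfr, Colec11, Dcn, Ecm1, Rgs5 and Hand2, chosen by name from the 56884 genes of the mouse count table, and each passed the filter of at least 10 counts in all that 18018 mouse genes passed. The RNA came from the liver of male athymic BALB/c (nu/nu) mice, which carry no T cells of thymic origin and had received human hepatocellular carcinoma (HCC) cells in the liver at an age of 6 weeks. Mice of both groups were given adeno-associated virus 8 (AAV8) by tail vein 1 week after implantation and were followed for 3 weeks more. The virus carried a control siRNA in the siControl group (3 libraries, labelled WT) and an siRNA against Aatf in the siAATF group (3 libraries, labelled KD). The siRNA was driven by the TBG promoter, which is active in hepatocytes and not in stellate cells. The xenografted human cells, the lack of T cells and the virus were shared by all 6 libraries. Whether the 3 libraries of a group came from 3 mice is not stated in the labels, so that p-values measure the spread between these libraries, which may be technical.

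In a healthy liver the stellate cell is quiescent, lies between hepatocytes and sinusoidal endothelium, and supplies growth factors such as HGF and matrix regulators such as decorin and ECM1. After injury, or around a tumor, it is activated through receptors such as PDGFR-β and p75NTR and by TGF-β, and turns into a contractile myofibroblast that lays down collagen. A bulk library holds many cell types, and several of the 10 genes are also expressed elsewhere: Des, Pdgfrb and Rgs5 in pericytes and smooth muscle, Dcn in portal fibroblasts, Ngfr in nerves. Fewer cells of a type and less RNA per cell cannot be told apart in such data.

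The mouse counts of the siControl libraries were 213022 to 913584, or 0.778% to 1.93% of all gene counts, and those of the siAATF libraries 11835898 to 42563694, or 97.9% to 99.0%. The other counts were human. Both groups are labelled liver, and whether the sequenced piece was tumor or liver beside it is stated for neither group in the labels or the sequencing methods, while the animal methods speak of tumor tissue at harvest. A difference in the piece taken and the effect of the siRNA cannot be told apart in any comparison below. A gene without counts in a library could still have had 3 counts there, which equals 1.67 to 7.25 CPM (mouse counts scaled to a common library total, here and below after TMM normalization) among the siControl libraries, and 0.104 to 0.605 CPM among those of siAATF. These limits cover counting error only, since the libraries were amplified by PCR. Mouse Aatf, the siRNA target, had 9.63, 2.42 and 12.8 CPM in siControl replicates 1 to 3 and 13.3, 22.0 and 18.9 CPM in siAATF replicates 1 to 3 (log2 fold change 0.93, adjusted p = 0.152, edgeR). Its log2 fold change was -0.92 (adjusted p = 0.174, edgeR) scaled to the mouse library size alone, and 5.04 (adjusted p = 3.77e-10) scaled to all gene counts, human and mouse, where it was called higher in the libraries labelled siAATF. These counts do not check the labels, and every direction below refers to the labels. Hepatocyte genes made up far more of the mouse counts in the libraries labelled siAATF, where all 8 of those listed rose with a median log2 fold change of 4.46. Of these, Apoa1 did not pass without siControl replicate 3 (adjusted p = 0.0651, edgeR), nor Alb without siControl replicate 2 or 3 (0.0543 and 0.0828), nor Fgb without siControl replicate 2 or 3 or siAATF replicate 3 (0.086 to 0.16).

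Of the 10 stellate cell genes, 3 fell and 1 rose in the libraries labelled siAATF, as shares of mouse counts, at an adjusted p under 0.05 (edgeR's quasi-likelihood test, Benjamini-Hochberg adjustment over all mouse genes), and 6 did not pass. Relative to all gene counts, human and mouse, 9 of the 10 were instead called higher, as were 87.2% of all mouse genes tested. Every count of genes higher on that scale below stands beside this share. As shares of mouse counts, Pdgfrb fell 12.2-fold, Des 8.01-fold and Hand2 3.29-fold, while Colec11 rose 3.21-fold. Among all mouse genes tested, 14.4% were called lower and 17.6% higher, or 32.0% in either direction. The groups did not overlap for 5 of the 10 genes, namely these 4 and Dcn, against 52.7% of all genes. The median log2 fold change of the 10 genes was -0.66, and that of all genes tested was 0.50. The 10 genes did not move as one: their log2 fold changes spanned 5.29, from Pdgfrb at -3.61 to Colec11 at 1.68.

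**Figure D1:**
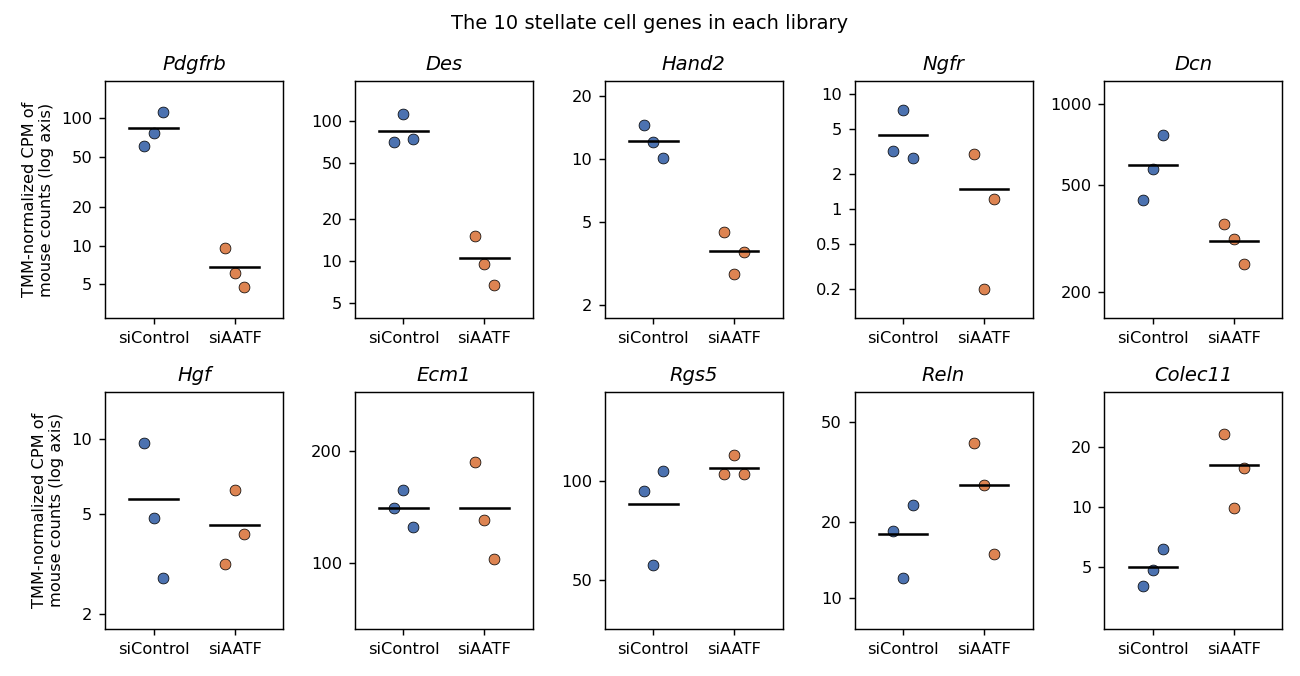
TMM-normalized CPM of mouse counts (log axis, a separate range in each panel) of the 10 stellate cell genes in the 3 siControl and the 3 siAATF libraries. Points are libraries and lines are group means. Pdgfrb, Des, Hand2 and Dcn were lower in every siAATF library, Colec11 was higher in every one, and the groups of the other 5 genes overlapped.

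The start regions of 3 of the 4 genes that changed are shown for the sequence context of this split. RefSeq promoters (GRCm38.p6, an earlier build than the GRCm39 of the count table) were found for 8 of the 10 genes. They were not found for Pdgfrb, the gene that fell most, and Dcn. The 3 printed belong to Colec11, which rose, and to Des and Hand2, which fell. Each runs from 250 bases before to 30 bases after the annotated start, and capitals mark every match to the E-box CANNTG, the motif bound by basic helix-loop-helix factors, the family of HAND2. Colec11 lies at chr12:28623301-28623580 on the minus strand, Des at chr1:75360042-75360321 and Hand2 at chr8:57320733-57321012, both on the plus strand.
Colec11: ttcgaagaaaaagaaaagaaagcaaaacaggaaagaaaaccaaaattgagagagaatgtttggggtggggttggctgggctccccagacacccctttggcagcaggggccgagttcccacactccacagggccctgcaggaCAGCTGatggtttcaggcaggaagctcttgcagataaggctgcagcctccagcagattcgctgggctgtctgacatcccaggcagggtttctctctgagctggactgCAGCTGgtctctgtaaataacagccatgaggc
Des: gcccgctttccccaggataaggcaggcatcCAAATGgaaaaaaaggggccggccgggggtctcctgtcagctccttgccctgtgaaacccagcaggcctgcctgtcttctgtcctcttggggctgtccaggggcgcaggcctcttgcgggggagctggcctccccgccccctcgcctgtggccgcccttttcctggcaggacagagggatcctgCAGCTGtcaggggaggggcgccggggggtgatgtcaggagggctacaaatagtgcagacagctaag
Hand2: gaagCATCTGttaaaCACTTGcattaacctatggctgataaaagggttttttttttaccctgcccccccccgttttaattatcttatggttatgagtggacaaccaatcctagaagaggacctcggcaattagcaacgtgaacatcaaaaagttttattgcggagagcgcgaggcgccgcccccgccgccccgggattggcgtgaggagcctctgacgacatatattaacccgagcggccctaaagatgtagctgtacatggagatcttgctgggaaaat
Colec11 held CAGCTG at a pair of places, beginning at positions -109 and -2 relative to its start, and Des held it once, at -36. Hand2 held no CAGCTG but a CATCTG at -246. On either strand of the 300-base windows, CAGCTG was found in 4 of the 8 genes with a promoter (Des, Ngfr, Colec11 and Rgs5) and in 16.3% of all 32851 promoters. CATCTG was found in Ecm1 and Hand2 and in 17.2% of all promoters. Both are forms of CANNTG, which all 8 genes and 72.3% of all promoters held. The 8 genes have 9 promoters, since Hgf has another, which held no CANNTG. A gene was counted if any of its promoters held the motif, while the shares of all are per promoter, so that the units differ. TATAAA was found in Ecm1 alone of the 8 and in 13.6% of all promoters, and AGATAA, a form of the GATA motif, in 3 of the 8 (Rgs5, Hand2 and Colec11) and in 11.2% of all. These letter matches are descriptions and do not show that a factor binds there.

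Among the receptors, Pdgfrb, which binds PDGF-B and PDGF-D and drives the growth and migration of activated stellate cells, fell most. It had 76, 32 and 201 counts in replicates 1 to 3 of siControl against 279, 30 and 85 in those of siAATF, an order kept for all values given without replicate numbers. The raw counts were thus of the same order while the mouse totals differed by more than an order of magnitude. Its normalized level was 61.0, 77.3 and 112 CPM in siControl and 9.63, 6.05 and 4.72 CPM in siAATF, so that the lowest siControl library stood well above the highest siAATF library. The means were 83.5 ± 26.1 and 6.80 ± 2.54 CPM (SD, n = 3 each), a log2 fold change of -3.61 (standard error 0.40, 95% interval -4.48 to -2.74, adjusted p = 9.67e-05, edgeR). With each library left out in turn it stayed between -3.95 and -3.34 and passed the test each time.

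Ngfr encodes p75NTR, a receptor for neurotrophins that is found on stellate cells and on nerves. It had 4, 3 and 5 counts across the siControl libraries against 88, 1 and 22 across the siAATF libraries. As CPM these were 3.21, 7.25 and 2.79 against 3.04, 0.202 and 1.22, and the groups overlapped. The log2 fold change of -1.30 (standard error 0.92, 95% interval -3.29 to 0.69) did not pass the test (adjusted p = 0.307, edgeR). Without siAATF replicate 1, which held most of its siAATF counts, it was -2.30 (adjusted p = 0.138, edgeR), and scaled to the mouse library size alone -2.92, called lower (adjusted p = 0.0215). Its siControl counts were few, and the interval of its change is the widest of the 10 genes.

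The ligands of these receptors were measured in the same fit. Pdgfb, made by endothelial cells and platelets, had 26.5, 43.5 and 47.4 CPM in siControl and 1.73, 0.403 and 0.777 CPM in siAATF, a log2 fold change of -5.14 (adjusted p = 4.46e-05, edgeR), or -5.83 without siAATF replicate 1. Pdgfd was scarce, with 2, 0 and 1 siControl counts, and its groups overlapped. The other PDGF receptor gene, Pdgfra, which marks fibroblasts and stellate cells, fell with a log2 fold change of -3.55 (adjusted p = 0.000108, edgeR). Of the 6 PDGF ligand and receptor genes, 3 fell and none rose (Pdgfb, Pdgfra and Pdgfrb fell), with a median of -2.03, while relative to all gene counts 3 of the 6 were higher and none lower (median 2.23).

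Bdnf, a neurotrophin, did not pass (log2 fold change -1.44, adjusted p = 0.0685, edgeR), although its groups did not overlap. Ntrk2, the receptor of BDNF, was called higher, with counts of 2, 0 and 1 across siControl against 90, 38 and 309 across siAATF, too few in siControl to give its fold change. Without siControl replicate 3 it did not pass (adjusted p = 0.105, edgeR). Sort1, which pairs with p75NTR, had a log2 fold change of 0.26 and overlapping groups. Of the 6 neurotrophin and receptor genes tested, Ngfr included, 1 was called higher (Ntrk2) and 1 lower (Ntrk3), against 0 higher and 3 lower by mouse library size alone and 5 higher and 0 lower relative to all gene counts. Ntrk3 did not pass without siControl replicate 2 or 3 or any 1 of the siAATF libraries (adjusted p = 0.0616 to 0.245, edgeR).

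Hgf, the hepatocyte growth factor that stellate cells secrete and hepatocytes receive through MET, had 12, 2 and 5 counts across the siControl libraries against 92, 31 and 75 across the siAATF libraries. Its level was 9.63, 4.83 and 2.79 CPM in siControl and 3.17, 6.25 and 4.16 CPM in siAATF, and all 3 siAATF libraries lay within the range of the siControl libraries. The log2 fold change was -0.37 (standard error 0.62, 95% interval -1.72 to 0.99, adjusted p = 0.678, edgeR), and it turned to 0.37 without siControl replicate 1. Hgf was called lower by mouse library size alone (log2 fold change -2.21, adjusted p = 0.0109, edgeR). Relative to all gene counts it was called higher (3.75, adjusted p = 2.58e-05, edgeR). The genes that act on HGF differed more. Met, its receptor, rose from 10.9 ± 3.31 to 56.6 ± 22.7 CPM (SD, n = 3 each, log2 fold change 2.47, adjusted p = 0.0014, edgeR). Hgfac, a protease of hepatocytes that cleaves pro-HGF, rose with a log2 fold change of 4.01 (adjusted p = 0.000151, edgeR). Plau, the urokinase that can also activate HGF, fell with a log2 fold change of -6.41. Of the 8 genes of HGF, its receptor, proteases and inhibitors, 4 rose (Met, Hgfac, Hpn and Spint2, the last not without siControl replicate 3, adjusted p = 0.052, edgeR) and 2 fell (Plau and St14), with a median of 0.84, while by mouse library size alone 1 was higher and 4 were lower (median -0.96). Met had a log2 fold change of 0.70 on that scale and did not pass (adjusted p = 0.322, edgeR).

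Colec11 was the only one of the 10 genes that rose. It encodes collectin-11, a soluble lectin that binds sugars on microbes and starts the lectin pathway of complement, and lies on chromosome 12 of GRCm39 (28644172 to 28673329). It had 5, 2 and 11 counts across the siControl libraries against 670, 49 and 284 across the siAATF libraries. The level was 4.01, 4.83 and 6.14 CPM in siControl and 23.1, 9.88 and 15.8 CPM in siAATF, without overlap. The means were 4.99 ± 1.07 and 16.3 ± 6.63 CPM (SD, n = 3 each), a log2 fold change of 1.68 (standard error 0.50, 95% interval 0.59 to 2.77, adjusted p = 0.0205, edgeR). The call rested on few siControl counts. It was lost without siAATF replicate 1 (adjusted p = 0.0675, edgeR) and without siControl replicate 1, 2 or 3 (adjusted p = 0.093, 0.0527 and 0.0685), and limma-voom gave 0.0751. Scaled to the mouse library size alone, the log2 fold change was -0.04.

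All 7 genes listed for the lectin pathway, Colec11 included, rose (median log2 fold change 3.82), and 4 of them were still called higher by mouse library size alone. Colec10, which pairs with collectin-11, had 1, 0 and 1 counts across the siControl libraries against 498, 43 and 160 across the siAATF libraries. Masp1, a protease of the pathway, rose from 57.9 ± 12.7 to 173 ± 61.7 CPM (SD, n = 3 each, log2 fold change 1.56, adjusted p = 0.0133, edgeR), and did not pass without siControl replicate 2 or 3 (adjusted p = 0.0648 and 0.0598). By mouse library size alone, Masp1 had a log2 fold change of -0.26 (adjusted p = 0.675, edgeR). Masp2, another protease, rose with a log2 fold change of 4.25 (adjusted p = 0.000261, edgeR), or 5.21 without siControl replicate 1. Most of these proteins are made by hepatocytes, whose genes also rose in the same libraries. The part of hepatocytes in the Colec11 counts was not tested.

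Reln encodes reelin, a large secreted glycoprotein that marks stellate cells in the liver and guides neurons in the brain. It had 23, 5 and 42 counts across the siControl libraries against 1192, 139 and 271 across the siAATF libraries, or 18.5, 12.1 and 23.4 CPM against 41.1, 28.0 and 15.0 CPM. Replicates 1 and 2 of siAATF were above all siControl libraries and replicate 3 was not. The log2 fold change was 0.57 (standard error 0.44, 95% interval -0.39 to 1.54, adjusted p = 0.337, edgeR). By mouse library size alone Reln had -1.16 (adjusted p = 0.0799, edgeR), and after thinning to the smallest mouse total 0.09. Relative to all gene counts Reln was called higher (4.85, adjusted p = 6.32e-10, edgeR). Its receptor genes were scarce: Lrp8, called lower, had 2, 5 and 3 counts across the siControl libraries against 0, 0 and 2 across the siAATF libraries, and Vldlr did not pass (log2 fold change -2.02, adjusted p = 0.078, edgeR). Dab1, the adaptor behind both receptors, had overlapping groups.

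The matrix genes were the most abundant of the 10. Dcn encodes decorin, a small proteoglycan that binds collagen and TGF-β. It had 546, 238 and 1373 counts across the siControl libraries against 10405, 1558 and 4577 across the siAATF libraries, so that counting error was small. The level was 438, 575 and 766 CPM in siControl and 359, 314 and 254 CPM in siAATF, lower in every siAATF library. The log2 fold change of -0.94 (standard error 0.46, 95% interval -1.94 to 0.06) did not pass in edgeR (adjusted p = 0.144), while DESeq2 gave -1.05 and an adjusted p of 0.0175. Of the other small leucine-rich proteoglycans, Bgn, its nearest relative, fell from 1060.1 ± 152 to 72.2 ± 31.9 CPM (SD, n = 3 each, log2 fold change -3.87, adjusted p = 0.000289, edgeR), and Lum fell with a log2 fold change of -3.51 (adjusted p = 0.000285, edgeR). Bgn and Lum were the 2 of the 9 genes of this family, Dcn included, that passed the test, while relative to all gene counts 6 of the 9 were higher and none lower.

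Ecm1 encodes extracellular matrix protein 1, which restrains the activation of latent TGF-β in the liver. It had 175, 65 and 224 counts across the siControl libraries against 5436, 649 and 1849 across the siAATF libraries. Its level was 141, 157 and 125 CPM in siControl and 188, 131 and 103 CPM in siAATF, and the siAATF libraries lay on both sides of the siControl libraries. The means were 141 ± 16.0 and 140.4 ± 43.3 CPM (SD, n = 3 each), with a 95% interval of the log2 fold change of -0.87 to 0.87 (adjusted p = 0.999, edgeR). Scaled to the mouse library size alone, Ecm1 was called lower (log2 fold change -1.76, adjusted p = 0.0107, edgeR), and after thinning to the smallest mouse total it had -1.12 (adjusted p = 0.0788). Genes that make or store TGF-β were lower: of the 11 listed, Ecm1 included, 8 fell and none rose as shares of mouse counts, with a median of -2.90, Tgfb2 among them only with siControl replicate 3 (adjusted p = 0.0603 without it, edgeR). Tgfb1 itself fell from 103 ± 2.63 to 6.66 ± 2.52 CPM (SD, n = 3 each, log2 fold change -3.92, adjusted p = 5.46e-05, edgeR), and Ltbp1, which tethers latent TGF-β to matrix, fell with a log2 fold change of -2.15 (adjusted p = 0.0162, edgeR) that did not pass without siControl replicate 3 (adjusted p = 0.0804) and was -2.83 without siAATF replicate 1.

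Des, the muscle-type intermediate filament desmin and a classic stellate cell marker of rodents, had 87, 46 and 133 counts across the siControl libraries against 437, 47 and 121 across the siAATF libraries. It lies on chromosome 1 of GRCm39 (75336973 to 75345223). Its level was 69.9, 111 and 74.2 CPM in siControl and 15.1, 9.48 and 6.71 CPM in siAATF, with a wide gap between the groups. The means were 85.1 ± 22.7 and 10.4 ± 4.26 CPM (SD, n = 3 each), a log2 fold change of -3.0 (standard error 0.40, 95% interval -3.87 to -2.13, adjusted p = 0.000252, edgeR). With each library left out in turn it stayed between -3.37 and -2.71 and passed each time. Vim, vimentin, the filament of most mesenchymal cells, fell with a log2 fold change of -4.97 (adjusted p = 0.000197, edgeR). Gfap, another filament known from stellate cells, had at most 1.12 CPM in any library and overlapping groups. Of the 6 filament genes listed, Des included, 3 fell and none rose, while relative to all gene counts 4 were higher and none lower.

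Rgs5, a regulator of G protein signalling that marks pericytes and stellate cells, had 116, 23 and 192 counts across the siControl libraries against 3046, 593 and 1890 across the siAATF libraries. Its level was 93.1, 55.6 and 107 CPM in siControl and 105, 119.6 and 105 CPM in siAATF, with overlap only through siControl replicate 3. The log2 fold change was 0.35 (standard error 0.39, 95% interval -0.49 to 1.19, adjusted p = 0.507, edgeR). Of 7 genes of the same family tested, Rgs5 included, 3 fell and none rose, with a median of -1.49, while by mouse library size alone all 7 were lower and relative to all gene counts 4 were higher. Rgs2 fell among them with a log2 fold change of -3.19.

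Hand2, a basic helix-loop-helix transcription factor of the liver mesenchyme, lies on chromosome 8 of GRCm39 (57774018 to 57777668). It had 18, 5 and 18 counts across the siControl libraries against 129, 14 and 65 across the siAATF libraries, or 14.5, 12.1 and 10.04 CPM against 4.45, 2.82 and 3.61 CPM, without overlap. The means were 12.2 ± 2.21 and 3.63 ± 0.814 CPM (SD, n = 3 each), a log2 fold change of -1.72 (standard error 0.46, 95% interval -2.72 to -0.71, adjusted p = 0.0140, edgeR). Without siControl replicate 1 it was -1.57 and did not pass (adjusted p = 0.0797, edgeR). Its exons overlap those of the antisense RNA Hand2os1, which had 3, 1 and 13 counts across the siControl libraries against 170, 49 and 61 across the siAATF libraries. The log2 fold change of Hand2os1, 0.48, did not pass (adjusted p = 0.592, edgeR). Whether strand was used in counting is not given in the sources used here, so that reads of this pair may not be told apart. Of the 9 transcription factors of liver mesenchyme tested, 4 fell (Hand2, Mef2c, Tbx20 and Wt1) and none rose, while by mouse library size alone 8 were lower and relative to all gene counts 7 were higher and none lower (median 2.86). Mef2c fell with a log2 fold change of -2.71. Wt1 did not pass without siControl replicate 1 or 3 or siAATF replicate 1 (adjusted p = 0.0616 to 0.112, edgeR). Tcf21 (log2 fold change -1.29, adjusted p = 0.125), Lhx2 (-1.14, adjusted p = 0.206) and Gata4 (0.93, adjusted p = 0.278) did not pass in edgeR.

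**Figure D2:**
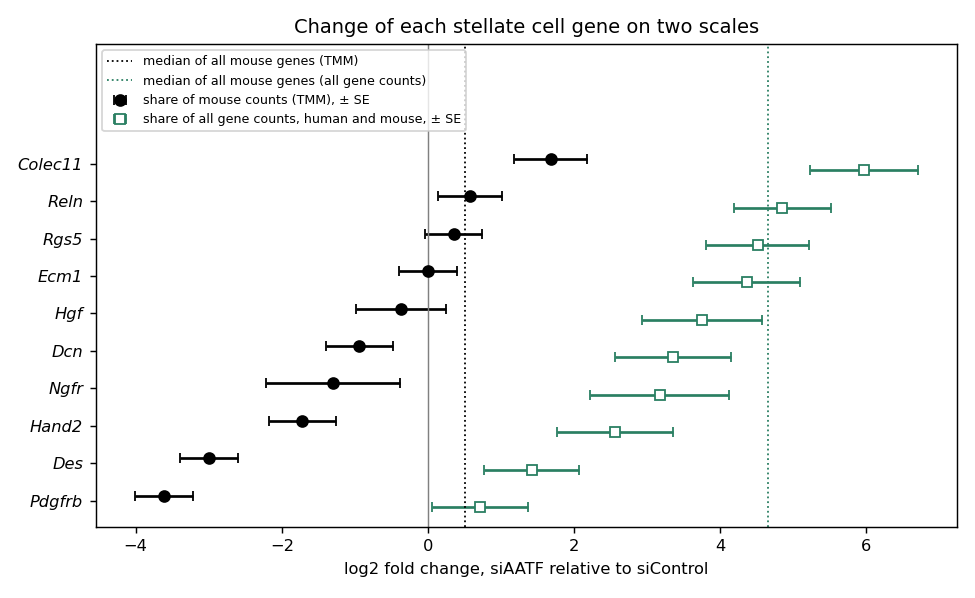
Log2 fold change of the 10 stellate cell genes, siAATF relative to siControl, as a share of mouse counts after TMM normalization (black) and as a share of all gene counts, human and mouse (green). Bars are standard errors and dotted lines are the medians of all mouse genes tested, 0.50 and 4.66. The order of the genes is the same on both scales. Pdgfrb, Des, Hand2, Ngfr, Dcn and Hgf lie below 0 on the first scale and above it on the second.

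The sign of these changes depended on what the counts were divided by, since mouse RNA was a small part of the siControl libraries. Divided by all gene counts, human and mouse, 9 of the 10 genes were called higher in the libraries labelled siAATF, near the 87.2% of all mouse genes. On that scale Colec11 had a log2 fold change of 5.97, Reln of 4.85 and Rgs5 of 4.51, and Ecm1, Hgf, Dcn, Ngfr, Hand2 and Des followed. Pdgfrb was the gene that did not pass (log2 fold change 0.71, adjusted p = 0.303, edgeR), with 2.08, 1.17 and 3.72 CPM of all gene counts in siControl, against 6.49, 2.48 and 2.40 in siAATF. The median of the 10 genes was 3.55, below the 4.66 of all mouse genes tested. Together the 10 genes took 29.1, 15.4 and 40.8 CPM of all gene counts in siControl, against 507, 257 and 261 in siAATF. As a share of mouse counts they took 0.151% to 0.241% in siControl and 0.0263% to 0.0512% in siAATF. Other lists also turned. On the scale of all gene counts all 11 other stellate cell genes listed were called higher (median log2 fold change 4.15), as were 5 of 10 portal fibroblast genes (median 1.22) and 4 of 7 pericyte and smooth muscle genes (median 1.56). Of the 11 genes of TGF-β storage, 4 were higher and 2 lower. The 12 genes of activated stellate cells and myofibroblasts kept a median below 0 (-1.27), with 6 called lower and 1 higher.

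Ratios between the 10 genes within a library do not depend on the scale. Pdgfrb was taken as the denominator after its values were seen, because it fell most, so that the direction of these ratios follows from that choice and no test is given. For each Pdgfrb count there were 0.0658, 0.0625 and 0.0547 Colec11 counts in siControl, against 2.40, 1.63 and 3.34 in siAATF. The mean log2 ratio thus differed by 5.28. Dcn had 7.18, 7.44 and 6.83 counts per Pdgfrb count in siControl, a narrow range, and 37.3, 51.9 and 53.8 in siAATF. Rgs5 had 1.53, 0.719 and 0.955 against 10.9, 19.8 and 22.2. Des was the gene that kept closest to Pdgfrb, with 1.14, 1.44 and 0.662 Des counts per Pdgfrb count in siControl and 1.57, 1.57 and 1.42 in siAATF, and its groups overlapped. Those of Ngfr overlapped as well, and the other 7 ratios did not, against 81.5% of all mouse genes tested, whose ratios to Pdgfrb did not overlap either (79.9% were higher in every siAATF library). A count of 7 of 9 is thus near what genes at large gave with this denominator.

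**Figure D3:**
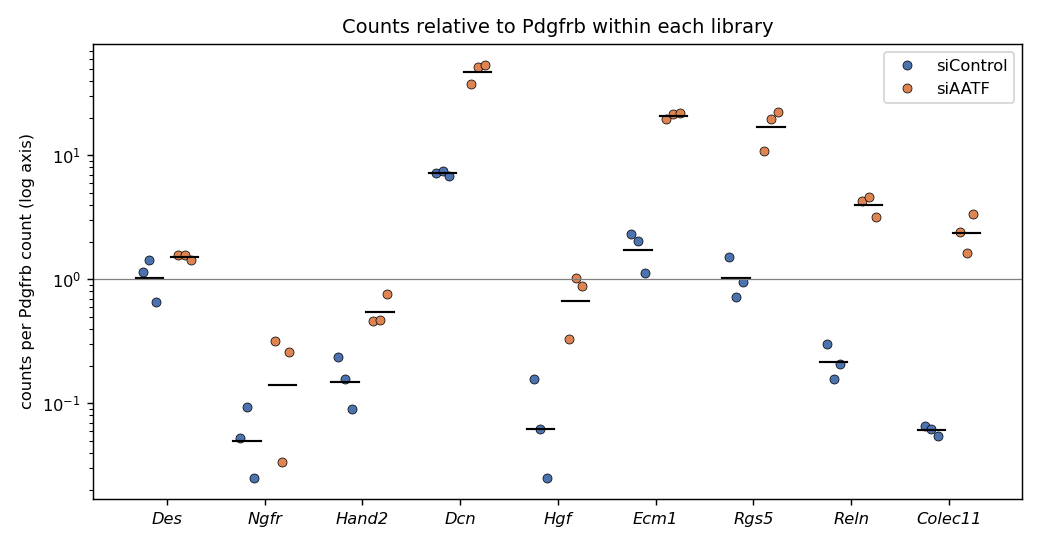
Counts of 9 stellate cell genes per Pdgfrb count (log axis) in each siControl and siAATF library. Points are libraries and lines are geometric means. The ratios of Des and Ngfr overlapped between the groups and those of the other 7 genes were higher in every siAATF library.

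Per length of gene (RPKM, the normalized CPM per kilobase), Dcn stood first and Ecm1 second in both groups. Dcn had a mean of 306 ± 84.8 RPKM in siControl and 159 ± 27.2 RPKM in siAATF, and Ecm1 74.1 ± 8.44 and 73.8 ± 22.8 RPKM (SD, n = 3 each). In siControl, Des followed at 28.1, Rgs5 at 18.8 and Pdgfrb at 15.2 RPKM, and the ranges of these neighbours overlapped. Then came Hand2 at 5.19 and Colec11 at 3.47 RPKM, whose ranges did not overlap those of their neighbours. The gaps around Colec11 were narrow: its range was 2.79 to 4.26 RPKM, with the lowest Hand2 value at 4.27 and the highest Hgf value at 2.69 RPKM. Counting error was wider than these gaps, since the 5 Colec11 counts of siControl replicate 1 had a 95% counting interval of 1.62 to 11.7. The last 3 were Hgf at 1.61, Reln at 1.54 and Ngfr at 1.28 RPKM, which overlapped. In siAATF, Rgs5 took rank 3 at 24.2 RPKM and Colec11 rank 4 at 11.3 RPKM, each apart from its neighbours. From Des at 3.44 RPKM on, neighbouring ranges overlapped, through Reln at 2.40, Hand2 at 1.54, Hgf at 1.26 and Pdgfrb at 1.24 to Ngfr at 0.431 RPKM. Pdgfrb thus held rank 5 in siControl and rank 9 in siAATF, and Colec11 ranks 7 and 4.

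**Figure D4:**
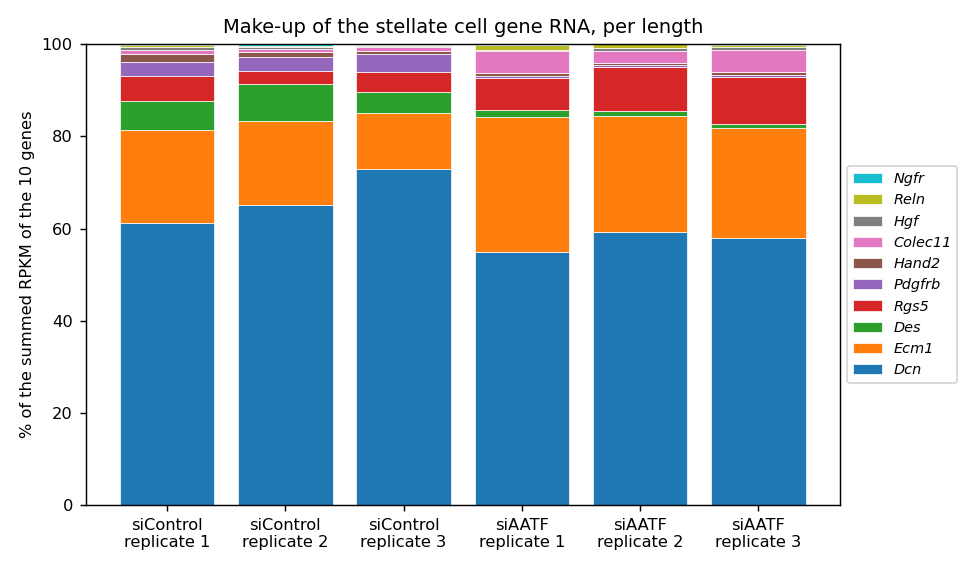
Share of each of the 10 stellate cell genes in their summed RPKM (per cent), in each of the 6 libraries. Dcn took 61.3% to 73.0% in siControl and 55.0% to 59.2% in siAATF, and Ecm1 12.1% to 20.0% and 23.8% to 29.3%. Des, Pdgfrb and Hand2 took smaller shares in every siAATF library, and Rgs5, Colec11 and Reln larger ones. The shares of Hgf and Ngfr overlapped between the groups.

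Of 11 other genes known from stellate cells, 2 were called higher and 1 lower, or 3 in either direction beside the 32.0% of all mouse genes. By mouse library size alone 0 were higher and 5 lower. Lrat, the enzyme that esterifies retinol for storage and the defining gene of the quiescent cell, had 5, 0 and 14 counts across the siControl libraries against 357, 30 and 155 across the siAATF libraries. Its RNA was thus found in each siAATF library, and its log2 fold change of 0.89 did not pass (adjusted p = 0.298, edgeR). Vipr1, a peptide hormone receptor, rose with a log2 fold change of 2.34 (adjusted p = 0.00711, edgeR), and did not pass without siControl replicate 3 (adjusted p = 0.0697). Angptl6 was called higher from 1, 0 and 0 counts in siControl against 239, 18 and 84, a call lost without siControl replicate 3 (adjusted p = 0.0872, edgeR). Cygb, a globin of stellate cells, fell from 144 ± 27.3 to 37.2 ± 8.95 CPM (SD, n = 3 each, log2 fold change -1.95, adjusted p = 0.0023, edgeR). The median of the list was -0.07, and -0.52 without Hhip, which had no siControl counts.

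Genes of the activated state moved one way as shares of mouse counts. All 12 genes listed for activated stellate cells and myofibroblasts fell on that scale, with a median log2 fold change of -5.67. Relative to all gene counts, 6 of the 12 were called lower and 1 higher (median -1.27). Lox, which cross-links collagen, fell from 225 ± 40.3 to 0.528 ± 0.230 CPM (SD, n = 3 each, log2 fold change -8.60, adjusted p = 6.71e-06, edgeR). Tagln, with at most 3 siControl counts in a library, did not pass with any 1 of the 6 libraries left out (adjusted p = 0.0651 to 0.145, edgeR), nor did Fap without siAATF replicate 1 or 3 (0.088 and 0.0532). The summed RPKM of these 12 genes was 6.17, 6.26 and 5.64 times that of the 10 stellate cell genes in siControl replicates 1 to 3, and 0.199, 0.0631 and 0.126 times in siAATF replicates 1 to 3. In siAATF, replicate 1 had the highest ratio. It also had the most Acta2, itself 1 of these 12 genes, at 46.1 CPM against 3.23 and 2.33 CPM in replicates 2 and 3. Myh11, a smooth muscle gene outside the 12, had 19.8 CPM against 1.82 and 1.44 CPM. The part of smooth muscle in this ratio was not tested.

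**Figure D5:**
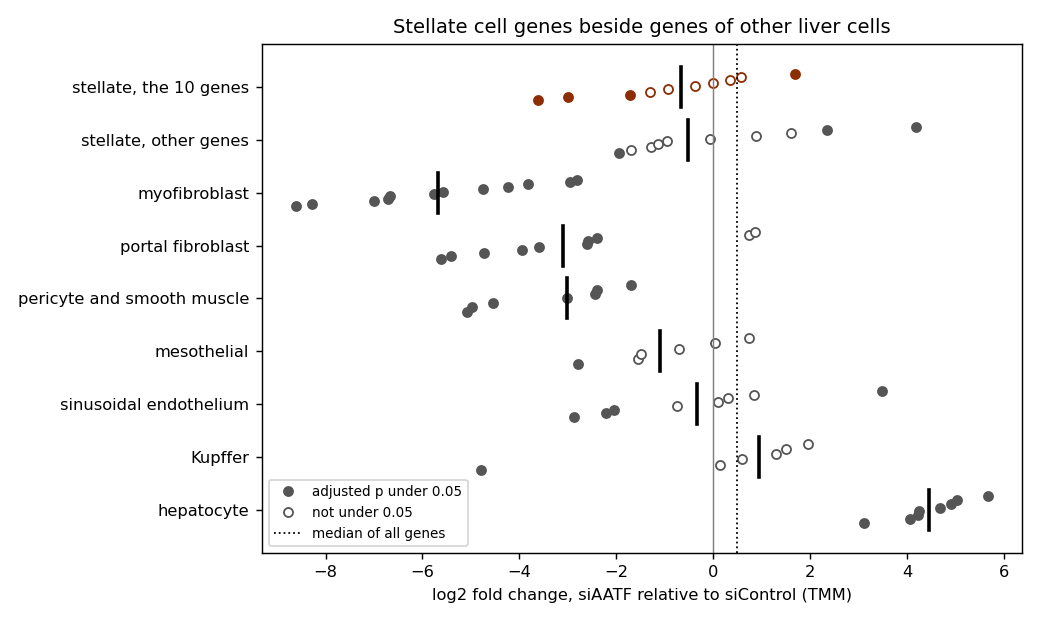
Log2 fold change (siAATF relative to siControl, TMM) of the 10 stellate cell genes and of genes of other liver cells. Points are genes, filled where the adjusted p was under 0.05, bars are list medians, and the dotted line is the median of all genes, 0.50. Hhip and Cd163, without siControl counts, are not drawn. The stellate cell genes spread around 0, the myofibroblast genes all lie below it and the hepatocyte genes all above it.

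Markers of other cells that express some of the 10 genes also moved. Of the pericyte and smooth muscle genes 7 of 8 were tested and all 7 fell, with a median of -3.02. Of these, Kcnj8 did not pass without siControl replicate 3 (adjusted p = 0.0602, edgeR), nor Myh11 without siControl replicate 2 (0.0516), nor Notch3 without siControl replicate 2 or 3 or siAATF replicate 1 (0.0525 to 0.173). Actg2 fell most among those with a mean of at least 50 counts (log2 fold change -5.09, adjusted p = 0.000747, edgeR), and without siAATF replicate 1 its log2 fold change was -7.61. Their summed level was 101 to 142 RPKM in siControl and 4.33 to 13.1 RPKM in siAATF. Of the 10 portal fibroblast genes 8 fell and none rose, with a median of -3.09. Their sum was 160.0 to 177 RPKM in siControl and 8.28 to 41.3 RPKM in siAATF, and Fbln2 led with a log2 fold change of -5.61. The part of these cells in the lower levels of Des, Pdgfrb and Dcn, of which Dcn did not pass the test, was not tested. Without siAATF replicate 1, Des had a log2 fold change of -3.37 and Pdgfrb a log2 fold change of -3.95. These values do not measure the part of other cells, since the pericyte and smooth muscle RNA of the siControl libraries stays in the comparison.

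Of the 6 mesothelial genes 1 fell, while relative to all gene counts 5 were higher, beside 87.2% of all mouse genes tested. In siAATF, replicate 3 held 236 Msln counts against 8 and 15 in replicates 1 and 2. Sinusoidal endothelial genes were mixed, with 1 of 8 higher (Clec4g, lost without siControl replicate 2 or 3, adjusted p = 0.0602 and 0.0824 in edgeR) and 3 lower, as were Kupffer cell genes, with 1 of 7 higher (Cd163, lost without siControl replicate 3, adjusted p = 0.0643 in edgeR) and 1 lower (Adgre1, log2 fold change -4.80). Relative to all gene counts, 8 of the 8 endothelial and 6 of the 7 Kupffer cell genes were higher and none lower, beside the same 87.2%. By mouse library size alone 4 and 2 were lower and none higher. Of all 23 named ligands, receptors and partners of the 10 genes, 6 were called higher and 8 lower, beside the 32.0% of all mouse genes called in either direction. By mouse library size alone 3 were higher and 12 lower. Relative to all gene counts 16 were higher and 0 lower, beside the 87.2% of all mouse genes called higher on that scale.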

How the data were processed

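The authors trimmed reads with Cutadapt, aligned them with STAR 2.7.11 to the human and mouse genomes joined together, dropped reads with several positions or on both species, and counted the rest on genes with featureCounts 2.0.1. They deposited these as raw gene counts, not normalized, in a mouse and a human table, with gene lengths in bases, another deposited column. SMART-Seq cDNA was amplified by PCR and strand use is not given in the sources used here. Mouse identifiers were named from gencode release 39 (56323 of 56884 found). No count column was left unassigned (0).

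Groups came from sample titles. Mouse counts were tested with edgeR 4.0.16 (quasi-likelihood, TMM, total of at least 10 counts, group only, R 4.3.3). A gene was called at a Benjamini-Hochberg adjusted p under 0.05. Standard errors came from the fitted means and quasi-dispersion. RPKM was CPM per kilobase of the deposited length. No list was tested. The steps were tested on simulated data. DESeq2 1.42.0, limma-voom (limma 3.58.1), other scalings and filters, thinning by draws without replacement, a replicate block and leaving out each library were alternatives. The 10 genes and all lists were chosen with earlier results of these data known. Named were all 10 genes, their listed ligands, receptors and partners, Aatf, and of each list the called gene with the largest |log2 fold change| and a mean of at least 50 counts. Ntrk3, Hand2os1, Tgfb2, Alb, Apoa1, Fgb, Tagln, Fap, Notch3, Kcnj8, Lrat, Hpn, Spint2, St14, Tbx20, Wt1, Vipr1, Angptl6, Cygb, Hhip, Cd163, Acta2, Myh11, Clec4g and Msln were named after their values were seen. Of the genes first listed, 2 are not reported here, and the counts and medians leave them out.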

Additional observations from a re-analysis of the deposited data

How the results depend on the processing

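The 3 lower calls and the 1 higher call kept their number with RLE and upper-quartile normalization, filterByExpr, no filter, an added fold threshold (|log2| at or over 1), the replicate block and without mitochondrial genes. DESeq2 called 4 lower, adding Dcn. Under limma-voom, and after thinning to the smallest mouse total, 0 were higher and 3 lower (after thinning, Dcn passed and Hand2 did not), and by the criteria of the study (unadjusted p, |log2 fold change| at or over 2) 2 were lower and 0 higher. The filter of at least 10 counts in every library left 5 of the 10 genes, without Hand2 and Colec11, and called 2 lower and 0 higher among them. Scaling to mouse library size alone called 8 lower and 0 higher, all but Reln and Colec11, and scaling to all gene counts 0 lower and 9 higher. With each library left out in turn, 2 to 3 were lower and 0 to 1 higher.

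Scaling to all gene counts reversed Des (1.42), Pdgfrb (0.71), Hgf (3.75), Ngfr (3.17), Dcn (3.35) and Hand2 (2.56), and among the partners Pdgfd (3.62), Pdgfra (0.84), Bdnf (2.67), Vldlr (2.25), Bgn (0.46), Lum (0.83), Gfap (3.02), Tgfb1 (0.40), Ltbp1 (2.21), Tcf21 (2.99), Lhx2 (3.17), Rgs2 (1.02) and Mef2c (1.57), as log2 fold changes. Mouse library size alone, which moved the median of all genes from 0.50 to -1.30, reversed Reln (-1.16), Colec11 (-0.04), Rgs5 (-1.48), Aatf (-0.92), Hand2os1 (-1.38), Sort1 (-1.48), Dab1 (-1.60), Masp1 (-0.26) and Gata4 (-0.70). Thinning reversed Rgs5 (-0.63) and Sort1 (-2.05), limma-voom Dab1 (-0.16), upper-quartile normalization Sort1 (-0.01) and the block Dab1 (-0.06). Leaving out each library in turn reversed Hgf (-0.81 to 0.37), Pdgfd (-1.07 to 0.46), Sort1 (-0.16 to 0.96), Gfap (-1.59 to 4.59) and Dab1 (-0.35 to 0.93). The cause was not tested.

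Same-numbered libraries had correlations of 0.145, 0.212 and -0.023 in their deviations from the group means, so the numbers do not pair them. With the replicate block 1 gene was higher and 3 lower, and it changed no call of the 10 genes. The siControl depth limits Colec11, Hgf, Ngfr and Hand2, with at most 18 counts in any siControl library.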
